A study of Homo sapiens with 4 samples.

Results

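A set of 10 genes of the cellular antioxidant and glutathione system was examined for nearby PPARG binding in human lung adenocarcinoma cells: GCLM, CAT, UCP2, TXNIP, SOD2, NQO1, TXNRD1, HMOX1, SLC7A11 and ME1. A peak was taken as a member when its midpoint lay within 100 kb of the hg19 span of one of these 10 genes, with spans rounded to 1 kb. This rule used position only and no score, but the genes were chosen with earlier results of these data known. It selected 15 of the 3644 peaks of both lists, 7 of 1419 in NCI-H1993 and 8 of 2225 in NCI-H2347.

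The chromatin came from NCI-H1993 and NCI-H2347, which are 2 established human lines of lung adenocarcinoma, each grown in medium with serum and each carrying a bacterial artificial chromosome transgene for PPARG with an EGFP-containing LAP tag. Fixed and sheared chromatin was precipitated with a goat antibody against EGFP, so the peaks describe the tagged protein, whose dose relative to the endogenous receptor is not known here. The 4 samples were 1 precipitated and 1 input library per line, and both precipitated libraries were used. The labels give no treatment, age or other genotype that separates the groups, and PIO in the names of the lists is not explained in them. With 1 library per line there was no replicate, so no difference between the lines could be tested. The read depth behind both lists is unknown.

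PPARG is a nuclear receptor that binds DNA as a heterodimer with RXR, at direct repeats of a hexamer half-site, and responds to fatty acids and synthetic ligands. The genes studied here take part in the control of reactive oxygen species. Glutathione is made from cystine that is imported by the SLC7A11 transporter, through a ligase whose modifier subunit is GCLM, and the NADPH that keeps glutathione and thioredoxin reduced comes in part from malic enzyme, ME1. CAT and SOD2 remove hydrogen peroxide and mitochondrial superoxide, respectively, TXNRD1 reduces thioredoxin, TXNIP binds and inhibits it, and NQO1 and HMOX1 are enzymes of quinone reduction and haem breakdown that stress induces through the transcription factor NRF2. UCP2 is a carrier of the inner mitochondrial membrane. CAT and UCP2 are known PPAR target genes in other tissues.

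The sites found in both lines lay inside CAT and TXNRD1, and the sequences before the starts of these genes are shown because one shared site lay at the 5′ end of CAT and TXNRD1 has a pair of listed starts. Sequences are from RefSeq, build GRCh38.p14, 250 bases before the start, 5′ to 3′ on the strand of the gene, which is the plus strand for both. They span chr11:34438684-34438933 for CAT, chr12:104215529-104215778 for the first TXNRD1 start and chr12:104286782-104287031 for the second. Capitals mark complete matches to TGACNNNGC, the core of the antioxidant response element that NRF2 binds, on either strand.

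CAT: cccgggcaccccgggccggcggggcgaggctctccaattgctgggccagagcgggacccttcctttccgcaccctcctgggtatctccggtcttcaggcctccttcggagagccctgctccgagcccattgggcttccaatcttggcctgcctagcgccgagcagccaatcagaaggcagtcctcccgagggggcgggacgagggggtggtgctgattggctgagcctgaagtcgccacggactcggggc

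TXNRD1, first start: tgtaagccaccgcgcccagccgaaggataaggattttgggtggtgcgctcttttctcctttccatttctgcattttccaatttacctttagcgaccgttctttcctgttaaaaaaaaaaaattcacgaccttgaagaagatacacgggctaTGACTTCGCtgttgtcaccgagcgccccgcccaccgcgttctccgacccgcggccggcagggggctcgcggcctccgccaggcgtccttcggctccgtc

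TXNRD1, second start: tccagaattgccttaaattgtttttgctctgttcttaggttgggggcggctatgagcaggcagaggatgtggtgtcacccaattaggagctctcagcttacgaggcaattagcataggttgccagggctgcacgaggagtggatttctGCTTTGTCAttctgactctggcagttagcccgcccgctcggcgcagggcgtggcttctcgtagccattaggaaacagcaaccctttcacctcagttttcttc

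The CAT sequence had 0 matches to the antioxidant core, to the half-site AGGTCA or to the DR1 element, which is that half-site repeated with 1 base between. The matched bases of TXNRD1 began 99 bases before the first start and 102 bases before the second. Another match, GCTCCGTCA, began 8 bases before the first TXNRD1 start, runs past it and is not in capitals. The build differs from that of the peaks, whose own sequence was not used here. Whether the CAT peaks overlap the CAT stretch was not determined. The TXNRD1 peaks had midpoints 4.93 kb, 62.6 kb and 62.7 kb from the 5′ end of the span. If that end is the first listed start and the spacing holds on hg19, the second start lies further in than these peaks. No TXNRD1 peak would then overlap a printed TXNRD1 stretch. Over the whole window of 250 bases before and 50 after a start, 14 promoters of 8 of the 10 genes were in the table; HMOX1 and SLC7A11 had no entry. The antioxidant core was present in 4 of the 14 (GCLM, both of TXNRD1, and ME1), against 13.3% of all 35116 promoters. In GCLM the match was GCTTAGTCA, beginning 34 bases before the start, and in ME1 it was TGACTCAGC, beginning 137 bases before it, with another, GCACCGTCA, after the start. The half-site AGGTCA was present in 2 of the 14, against 13.8% of all promoters. These 2 were promoters of SOD2, which also had listed promoters without it. A DR1 with up to 2 mismatches was present in 1, a SOD2 promoter that also holds the half-site, against 2.97%. Both strands were searched, the half-site is part of the DR1, and a match is a description of the letters only.

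The lines had the same number of genes with a peak within 100 kb, and 2 of these genes were common to both. In each line 5 of the 10 genes had at least 1 peak in their window. The equality depended on the setting. Within 50 kb the numbers were 4 in NCI-H1993 and 5 in NCI-H2347, and within 200 kb both were 6. With NCI-H2347 reduced to its 1419 best-scoring peaks they were 5 and 4, and the gene lost was UCP2. Of the genes, 2 had peaks in both lists (CAT and TXNRD1), 3 in NCI-H1993 alone (GCLM, NQO1 and ME1), 3 in NCI-H2347 alone (UCP2, TXNIP and HMOX1) and 2 in neither (SOD2 and SLC7A11). For comparison, the genome was divided into consecutive tiles of 263.3 kb, the mean length of the 10 windows. A peak was found in 9.90% of 11401 tiles in NCI-H1993 and in 14.0% in NCI-H2347. Tiles with a peak in both lists made up 4.96%, those with one in NCI-H1993 alone 4.94% and those with one in NCI-H2347 alone 9.06%. Tiles include gene deserts and assembly gaps. The same share over all genes was not computed, since gene positions on hg19 beyond the 10 spans were not used here, so a higher share near these genes than in tiles is not read as particular to them.

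**Figure D1:**
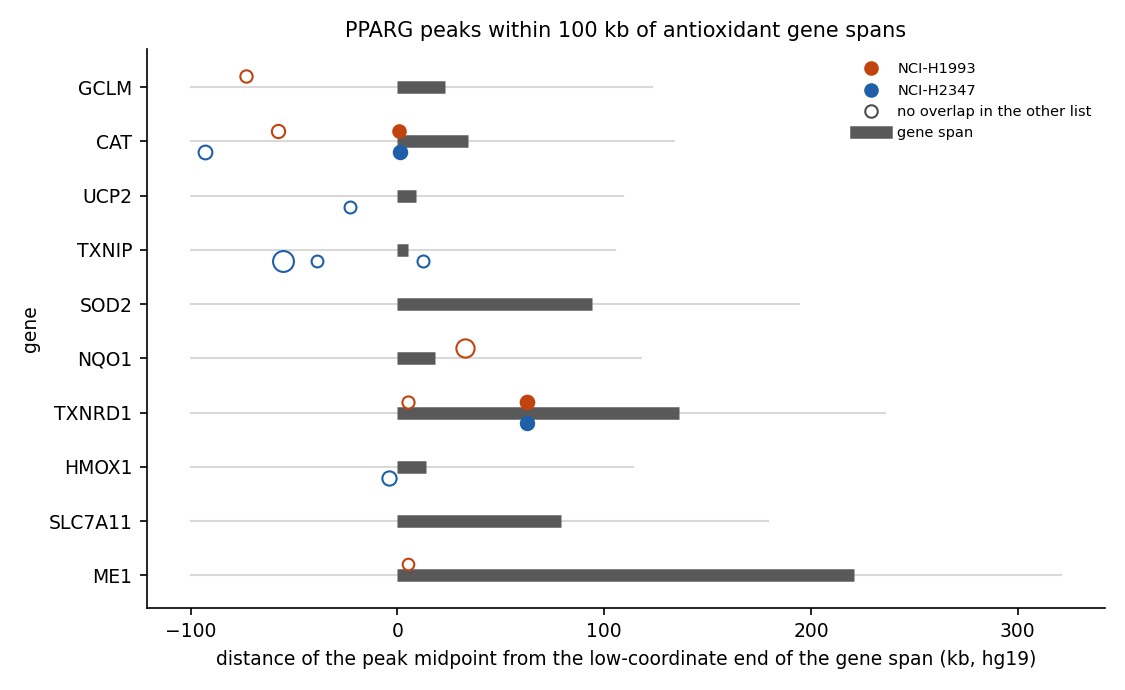
Position of each of the 15 peaks (circles, area proportional to the authors' score) relative to the low-coordinate end of its gene span in kb, with the span as a dark bar and the window of 100 kb on each side as a thin line. Filled circles overlap a peak of the other list: they appear at the start of CAT and in the middle of TXNRD1.

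CAT, which encodes the peroxisomal enzyme that breaks down hydrogen peroxide, had a peak at its 5′ end in both lines. The NCI-H1993 peak was chr11:34460763-34461150, scoring 60.2, and the NCI-H2347 peak was chr11:34460765-34461418, scoring 69.0. The midpoints lay 0.957 kb and 1.09 kb inside the span, which begins at 34460000 to the nearest kb, on the side where CAT starts. The peaks overlapped by 386 bp, and their midpoints were 135 bp apart. Both had modest scores, at the 32.4 percentile of the NCI-H1993 list and the 40.9 percentile of the NCI-H2347 list.

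CAT also had 1 further peak upstream in each line, and these did not coincide. In NCI-H1993 it was chr11:34401950-34402765, 57.6 kb before the span, with a score of 67.5. In NCI-H2347 it was chr11:34366450-34367437, 93.1 kb before the span, with a score of 72.6. They were 35.4 kb apart. In the RefSeq order of genes the neighbour on that side is ABTB2, and whether these peaks lie in it was not determined.

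TXNRD1, the cytosolic selenoenzyme that keeps thioredoxin reduced, held the second site found in both lines. The NCI-H1993 peak was chr12:104671236-104671996, scoring 70.8, and the NCI-H2347 peak was chr12:104671206-104672103, scoring 68.2. It lay inside the gene, 62.6 kb and 62.7 kb from the 5′ end of the span. The NCI-H1993 peak lay wholly within the NCI-H2347 peak, with 761 bp in common and midpoints 38.5 bp apart. A second NCI-H1993 peak, chr12:104613584-104614284, lay 4.93 kb inside the 5′ end of the span with a score of 56.9. The nearest NCI-H2347 peak to it was the shared site, 57.7 kb away.

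The share of peaks found in both lists was then counted. Overlap with the other list, by at least 1 bp, was found for 2 of 7 peaks in NCI-H1993 (28.6%, 95% Wilson interval 8.22% to 64.1%), against 34.2% of the whole list. It was found for 2 of 8 in NCI-H2347 (25%, 7.15% to 59.1%), against 21.7% of the whole list. The intervals cover counting error only. With 7 and 8 peaks these shares are a description, and no difference from the lists was tested.

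NQO1, the quinone reductase, had the highest-scoring member peak of NCI-H1993. It was chr16:69775205-69776060, with a score of 128, and ranked 189 of 1419. NQO1 is transcribed toward lower coordinates, and the peak lay 14.6 kb beyond the high-coordinate end of the span, upstream of the gene. The neighbour in RefSeq order on that side is NOB1, and whether the peak lies closer to that gene was not determined. NCI-H2347 had no peak within 701 kb of the NQO1 span.

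HMOX1, the inducible haem oxygenase, had 1 peak close to its 5′ end in NCI-H2347. The peak, chr22:35772788-35773576, lay 3.82 kb below the span, which is the upstream side of HMOX1, and had a score of 78.1. That score was near the middle of its list, at the 50.9 percentile. In NCI-H1993 the nearest peak was 141 kb away on the other side of the gene, outside the window, at chr22:35931920-35932378 with a score of 110.

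GCLM and ME1 each had 1 peak, in NCI-H1993, and SLC7A11 had none within its window. GCLM, the modifier subunit of the ligase that starts glutathione synthesis, had 1 NCI-H1993 peak at chr1:94278352-94279375, 73.1 kb from the span on its 3′ side, with a score of 58.6. The RefSeq neighbour on that side is DNTTIP2, and whether the peak lies in or closer to another gene was not determined. ME1 had 1 NCI-H1993 peak inside the gene, chr6:83924780-83925370, 5.08 kb from the low-coordinate end of the span, which is its 3′ end. Its score of 51.4 ranked 1342 of 1419 and was near the lowest score of the list, 50.03. The ME1 peak stood alone: the next NCI-H1993 peak on the chromosome was 8032 kb away and the nearest NCI-H2347 peak 4517 kb away. SLC7A11, the cystine transporter, had its nearest peaks 486 kb away in NCI-H1993 and 739 kb away in NCI-H2347.

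TXNIP, the thioredoxin inhibitor, had 3 peaks in the full NCI-H2347 list, the most of the 10 genes in a single list, and none in NCI-H1993. The 3 peaks were chr1:145382383-145383457 with a score of 167, chr1:145398759-145399536 with a score of 53.8 and chr1:145449806-145450545 with a score of 55.0. The first lay 55.1 kb and the second 38.9 kb below the span, and the last lay 7.18 kb above it. The first was the highest-scoring member peak of NCI-H2347 and ranked 289 of 2225. Whether any of the 3 peaks lies in or closer to another gene was not determined. The nearest NCI-H1993 peak to the TXNIP span was 567 kb away. Whether the sides are upstream or downstream was not assigned, because the assembly around TXNIP was revised between hg19 and GRCh38, so that its strand in the RefSeq table need not be that on hg19.

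The genes for mitochondrial proteins, UCP2 and SOD2, had numbers of member peaks that were also seen at other genes of the set. UCP2 had 1 NCI-H2347 peak, chr11:73661763-73662343, 22.9 kb below the span on the 3′ side of the gene, with a score of 54.3. The neighbour on that side in RefSeq order is DNAJB13. In NCI-H1993 the peak nearest to UCP2 was 1266 kb away. SOD2, the mitochondrial superoxide dismutase, had its nearest peaks 1979 kb away in NCI-H1993 and 674 kb away in NCI-H2347. Signal below the authors' calling threshold is not in the lists, so these distances are to listed peaks only.

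**Figure D2:**
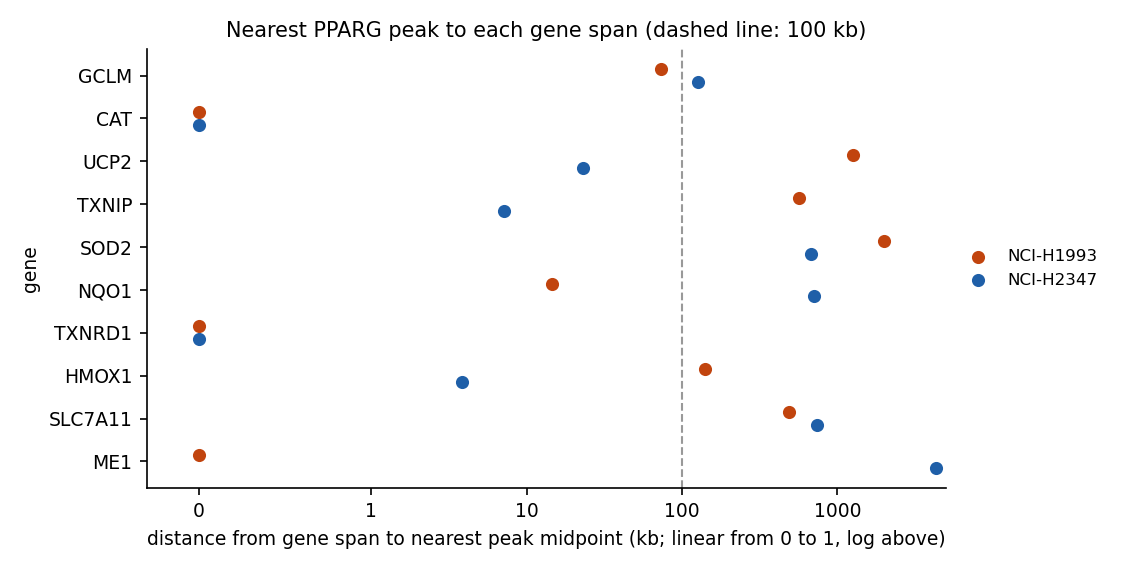
Distance in kb from each gene span to the nearest peak midpoint of each list, on an axis that is linear from 0 to 1 kb and logarithmic above, with 0 for a peak inside the span and a dashed line at 100 kb. CAT and TXNRD1 are at 0 in both lines, ME1 is at 0 in NCI-H1993 and 4301 kb in NCI-H2347, and SOD2 and SLC7A11 lie right of the dashed line in both.

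Peaks inside the genes themselves were counted separately, an alternative added after the data were seen. NCI-H1993 had 4 peaks inside 3 genes (CAT, TXNRD1 and ME1), and NCI-H2347 had 2 peaks inside 2 genes (CAT and TXNRD1). Tiles of 63.3 kb, the mean length of the 10 spans, held a peak in 2.71% of 47376 cases in NCI-H1993 and 4.05% in NCI-H2347. The spans of ME1 and TXNRD1, 221 kb and 136 kb, are longer than these tiles. Tiles also include gene deserts, so a higher share inside these genes is not read as particular to them. Within 25 kb of a span, 4 genes had a peak in NCI-H1993 and 5 in NCI-H2347, where tiles of matching length held one in 4.67% and 6.81% of cases. Within 500 kb the numbers were 7 and 6, and the tile shares were 30.6% and 38.7%. The ratio of the gene share to the tile share was thus smaller at 500 kb than at 25 kb in both lines. This ratio is capped at wide windows, where the tile share is high and the gene share cannot pass all 10 genes. Its fall is therefore not interpreted.

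**Figure D3:**
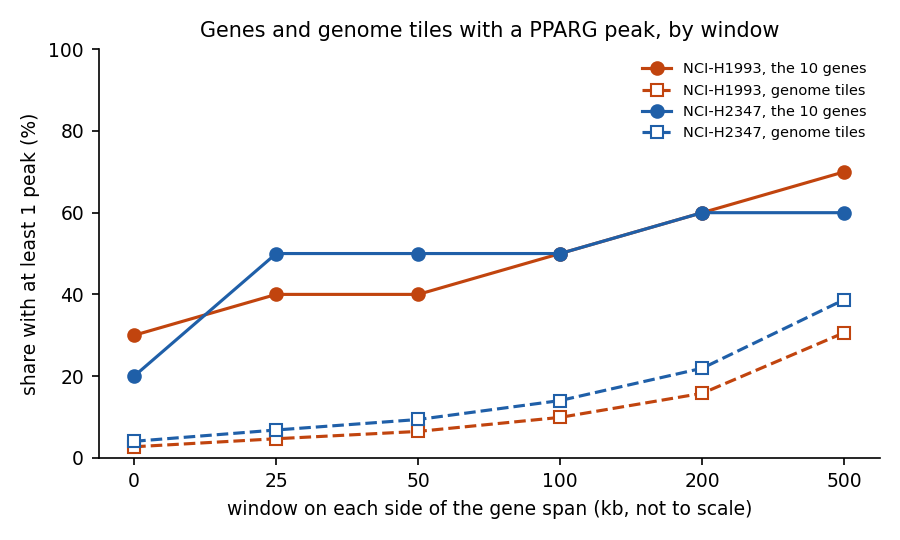
Share of the 10 genes (filled circles) and of consecutive genome tiles of the matching length (open squares) with at least 1 peak, in percent, for windows of 0 to 500 kb on each side of the gene span. The circles coincide at 50% for both lines at 100 kb, where the squares are at 9.90% and 14.0%.

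Within 100 kb, most of the peaks near these genes scored below the middle of their own list. The score is the authors' value for each peak and ranks peaks only within a list. Scores in NCI-H1993 ran from 51.4 (ME1) to 128 (NQO1), with a median of 60.2 against 69.8 for the whole list. Scores in NCI-H2347 ran from 53.8 to 167, both at TXNIP, with a median of 68.6 against 77.1. The median member peak was at the 32.4 percentile of NCI-H1993 and the 40.2 percentile of NCI-H2347. With a window of 200 kb, which adds 4 peaks in each list, these medians were at the 51.6 and 43.1 percentiles, so the position below the middle did not hold in NCI-H1993. Above the median score of the list were 2 of 7 peaks in NCI-H1993 (NQO1 and the shared TXNRD1 site) and 2 of 8 in NCI-H2347 (TXNIP and HMOX1). The count of peaks scoring 100 or more was 1 in NCI-H1993 (NQO1), against 23.8% of the list, and 1 in NCI-H2347 (TXNIP), against 33.0% of the list. These are descriptions of 7 and 8 peaks.

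**Figure D4:**
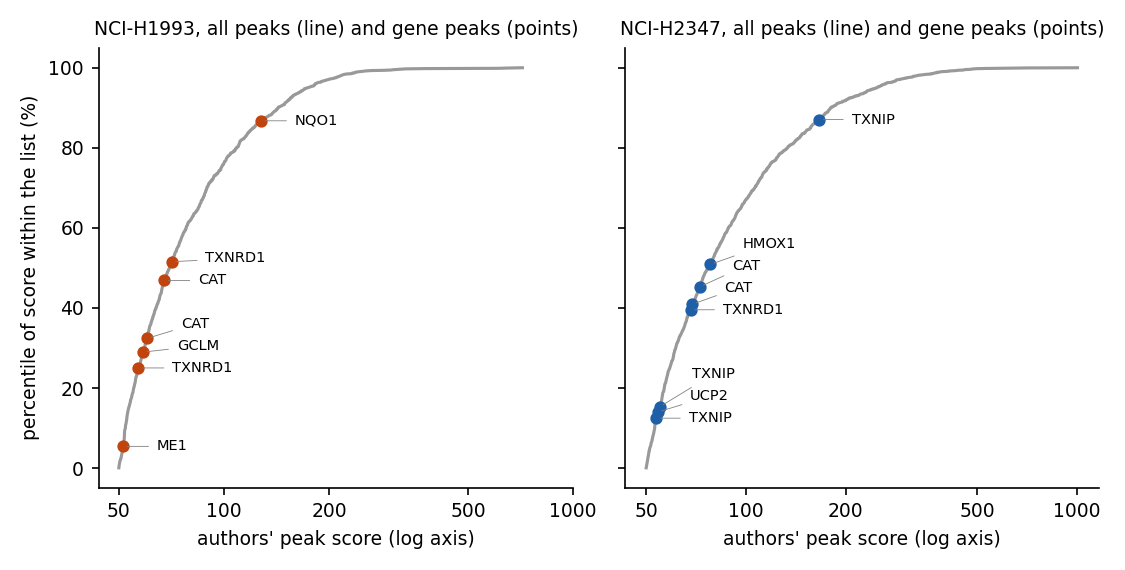
Percentile of the authors' score within the list against the score on a logarithmic axis, for all peaks of each line (grey line) and for the peaks near the 10 genes (labelled points). In NCI-H1993 the NQO1 peak stands above the other points at a score of 128, and in NCI-H2347 a TXNIP peak does so at 167.

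Widths of member peaks were close to those of their lists. In NCI-H1993 they ran from 388 bp at the CAT 5′ end to 1024 bp at GCLM, with a median of 761 bp against 731 bp for all peaks. In NCI-H2347 they ran from 581 bp at UCP2 to 1075 bp at TXNIP, with a median of 783.5 bp against 832 bp. The member farthest from its gene was the NCI-H2347 peak at 93.1 kb from CAT, and the nearest peak outside the window was an NCI-H2347 peak 104 kb beyond TXNRD1, chr12:104848302-104849314, with a score of 87.5.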

How the data were processed

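PPARG ChIP-seq peaks of 2 lung adenocarcinoma lines were analysed, 1 library each. MACS 1.4.2 and hg19 are named by the submitters' processing notes; the aligner, read filters, threshold and use of the input: not given in the sources used here. Column 5 holds the score deposited by the authors for each peak, which here ranked or filtered peaks within 1 list. Starts were converted to 1-based positions. Peaks were assigned by midpoint to windows of 100 kb around the 10 spans, whose lengths differ from RefSeq's GRCh38 gene lengths by at most 1.47 kb. All 10 genes and all 15 peaks are named, as the naming rule required. Members, lists and motifs were chosen with earlier results of these data known, so no test was made over them. Tiles ran from position 1 to the last peak of each chromosome (1 to 22 and X). A further 20 pathway genes could not be placed without hg19 positions. Gene strand and neighbours are from RefSeq (GRCh38.p14), taken to hold on hg19 except for TXNIP; the revised assembly there and the orientation of HMOX1 are general knowledge. Counting was tested on simulated lists. Alternatives were other windows, score minimum, list length, overlap rules and tile lengths. Python 3.11.15, numpy 2.4.6, pandas 2.3.3, scipy 1.17.1 and matplotlib 3.10.9 were used.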

Additional observations from a re-analysis of the deposited data

How the results depend on the processing

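The 2 shared sites, in CAT and TXNRD1, stayed 2 in each list with a window of 25 kb or 50 kb, midpoints no more than 250 bp apart, 50% reciprocal overlap, gaps allowed to 500 bp, any base in the window and NCI-H2347 reduced to its 1419 best-scoring peaks, and became 3 with 200 kb. With a score of at least 100 there were 0 shared sites, and 1 peak at 1 gene was left in each list. The number of peaks was 11 in NCI-H1993 with 200 kb, 5 in NCI-H2347 with 25 kb and 5 in NCI-H2347 with its list so reduced. Counting inside the span only, added after the data were seen, gave 4 peaks at 3 genes in NCI-H1993 and 2 at 2 genes in NCI-H2347. The median score percentile of NCI-H1993 moved to 51.6 with 200 kb and was 32.4 with 50 kb. That of NCI-H2347 was 43.1 with 200 kb and 27.4 with 50 kb. The share of tiles with a peak was 7.90% and 14.8% in NCI-H1993, and 11.4% and 20.3% in NCI-H2347, for tiles as long as the shortest and the longest window. The motif search had no alternative. No paired analysis was possible because each line had 1 library. The unknown depth means that an unlisted site may still be bound.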

Other observations

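The peak with the highest rank in its own list within 200 kb of the 10 spans lay outside the 100 kb window, near GCLM. It was 127 kb from the span on the 3′ side of the gene, beyond the 1 member peak of GCLM, and was found in both lines. In NCI-H1993 it spanned chr1:94224234-94225191 with a score of 301 and ranked 9 of 1419. In NCI-H2347 it spanned chr1:94224404-94225025 with a score of 51.0 and ranked 2134 of 2225. The same site was thus among the highest scores of one list and the lowest of the other, and without replicates or depth this difference was not tested. A further NCI-H1993 peak lay between it and the member peak, at chr1:94244977-94246090 with a score of 87.7. In RefSeq order the genes on that side of GCLM are DNTTIP2 and then BCAR3, and which of them holds the site was not determined. This site was singled out after its values were seen.

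Peaks within 1 Mb of each span were also counted, here NCI-H1993 first and NCI-H2347 second. GCLM had 6 and 8 peaks, CAT 4 and 6, TXNRD1 4 and 4, and HMOX1 3 and 4. NQO1 had 5 and 4, although its 100 kb window held a peak in NCI-H1993 alone. TXNIP had 1 and 6, and SLC7A11 had 3 and 1. UCP2 had 0 and 1, SOD2 0 and 1, and ME1 1 and 0. Consecutive genome tiles of 2063.3 kb, the mean length of these wider windows, held 0.964 peaks on average in NCI-H1993 (median 0) and 1.52 in NCI-H2347 (median 1). These tiles also include gene deserts and assembly gaps, so higher counts around these genes are not read as particular to them.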
